A study of Mus musculus with 4 samples.

Results

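The unfolded protein response genes described here are 10 mouse genes chosen by name: Ern1, Ern2, Xbp1, Eif2ak3, Atf4, Ddit3, Ddit4, Atf6, Hspa5 and Herpud1. They are 10 of the 21631 protein-coding genes analysed (autosomes and chromosome X), and every Fos summit inside a gene or within 50 kb of it was assigned to its window. The 10 windows did not overlap and held 314 of 178981 summits, in 171 of 108406 enriched regions. A summit is the base of highest signal in a peak, and a region can hold several.

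Fos binding was profiled by CUT&Tag, in which Tn5 transposase, brought by an antibody to a bound protein, tags the DNA beside it, in wild-type mouse colonic epithelium. Of the 4 libraries, 2 were healthy controls without treatment and 2 came from mice recovered from colitis. The latter drank 1 to 1.5% dextran sodium sulfate (DSS), which injures the colonic lining, for 3 cycles of 7 days separated by 10 days, and were sacrificed 22 days after the last. All 4 libraries carried 1 batch label, and the mucosa was scraped off after EDTA treatment, so the material is an enriched tissue fraction and not a sorted cell type.

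The values come from 1 peak list that does not separate the 4 libraries. No value below therefore has a replicate error, healthy and recovered colon were not compared, and no test between groups was possible. Each summit has the fold enrichment of the peak caller. It is a linear ratio, the pileup plus 1 over a uniform background of 3.16 fragments per base plus 1. The pileup, the caller's count of fragments that overlap the summit, was recovered from the fold. Whether the caller counted read pairs or extended single reads is not given, and the word fragment stands for either. Intervals on pileups are exact 95% Poisson intervals and cover counting error only. No library with an untargeted antibody was analysed here, so how much of the signal is open chromatin cut by Tn5 without Fos was not measured. Fos summits stood within 1 kb of either end of 8 of 8 epithelial marker genes, with a median highest fold of 69.6. The highest folds ran from 11.8 at Car1, and 18.8 at both Krt18 and Krt20, to 172.9 at Krt8. Among all protein-coding genes 62% had such a summit, and the median highest fold of those genes was 27.4. Of 10 markers of leukocytes, endothelium, fibroblasts and muscle, 2 had such a summit, Col1a1 with a fold of 6.98 and Pdgfra with 4.33.

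The unfolded protein response senses misfolded protein in the endoplasmic reticulum (ER) through 3 membrane sensors. IRE1, encoded by Ern1 and its paralog Ern2, splices the mRNA of the transcription factor XBP1. PERK, encoded by Eif2ak3, phosphorylates the initiation factor eIF2α, which favours translation of ATF4 and then transcription of Ddit3 and other targets. ATF6 moves to the Golgi, where proteases release its transcription factor domain. Secretory epithelium relies on the pathway because goblet cells fold and export large amounts of mucin. Fos is a leucine zipper subunit of AP-1, whose classic site is TGACTCA, and ATF4, ATF6, XBP1 and the Ddit3 product CHOP belong to the same wider class of leucine zipper factors.

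All 10 members had a Fos summit within 1 kb of a gene boundary, that is, of either end of the gene. Among all protein-coding genes 62% had one, so this count alone says little about the members. The promoter table of RefSeq (GRCm38.p6, the assembly that mm10 names) held 8 of the 10 genes, all but Ern2 and Atf6, and gave their start and strand. A summit lay within 1 kb of the start at 8 of those 8 genes, against 62.2% of the 17274 protein-coding genes in the table. A summit lay within the 300 bases from 250 before to 50 after the start at 6 of 8, against 45.8% of those genes. The exceptions were Herpud1, whose nearest summit was 63 bp after the start, just outside that stretch, and Xbp1, with its nearest at 321 bp after the start.

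Sequences before the start are shown for 4 genes because their start summits were among the strongest of the members (Eif2ak3, Atf4, Herpud1) or lay amid known ER stress elements (Hspa5). Capitals mark every match, on either strand, to AP-1 (TGACTCA), the cAMP response element TGACGTCA, the core TGACGTG of the unfolded protein response element, the ATF4 and CHOP composite TTGCATCA, the CCAAT box and the ER stress element. The last is a CCAAT box followed, after 9 bases of any kind, by CCACG. The cAMP response element and the unfolded protein response core share their first 6 letters. Each run is on the strand of the gene, 5′ to 3′, and ends at the last base before the annotated gene.
Hspa5, chr2:34771840-34772089, plus strand: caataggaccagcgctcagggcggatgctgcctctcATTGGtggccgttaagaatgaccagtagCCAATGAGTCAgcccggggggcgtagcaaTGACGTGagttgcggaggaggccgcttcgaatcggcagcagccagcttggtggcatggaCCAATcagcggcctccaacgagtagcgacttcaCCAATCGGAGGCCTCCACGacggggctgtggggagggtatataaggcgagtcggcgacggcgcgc
Eif2ak3, chr6:70844265-70844483, plus strand: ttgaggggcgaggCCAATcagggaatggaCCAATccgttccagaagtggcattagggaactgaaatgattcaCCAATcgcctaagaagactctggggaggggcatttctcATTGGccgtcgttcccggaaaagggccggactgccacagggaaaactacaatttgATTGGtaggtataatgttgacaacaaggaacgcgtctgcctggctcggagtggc
Atf4, chr15:80254934-80255183, plus strand: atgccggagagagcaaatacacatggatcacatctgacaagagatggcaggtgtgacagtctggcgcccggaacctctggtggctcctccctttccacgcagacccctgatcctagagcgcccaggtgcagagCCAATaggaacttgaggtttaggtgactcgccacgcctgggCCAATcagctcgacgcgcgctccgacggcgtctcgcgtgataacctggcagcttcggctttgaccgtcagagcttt
Herpud1, chr8:94386179-94386428, plus strand: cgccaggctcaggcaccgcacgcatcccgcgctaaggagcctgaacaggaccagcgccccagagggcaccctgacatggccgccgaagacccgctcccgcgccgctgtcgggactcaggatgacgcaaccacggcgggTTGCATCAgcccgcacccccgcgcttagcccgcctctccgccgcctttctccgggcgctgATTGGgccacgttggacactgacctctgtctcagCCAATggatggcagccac

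The Hspa5 stretch held the most kinds of motif. Its AP-1 match lay 182 to 176 bases before the start, overlapped a CCAAT by 1 base and was 53 bases from the summit. The response element core lay 157 to 151 bases before the start, 28 bases from the summit, and the full ER stress element 65 to 47 bases before it, 58 bases from the summit. An ER stress element of exactly this spacing occurred in 0.168% of the 17274 genes' promoters and the response element core in 2.52%, and Hspa5 was the 1 member with either.

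An AP-1 match was present in 2 of the 8 member promoters, Hspa5 and Ddit3, against 5.44% of all genes in the table. At Ddit3 the start summit and the AP-1 match lay apart. They are shown as short pieces of the plus strand, since the longer stretch overlaps the neighbouring gene Mbd6. Capitals mark the summit base in the first and the AP-1 match in the second.
Ddit3 summit, chr10:127290703-127290731: gtgccgctttctgaTtggtaggctcctgg
Ddit3 AP-1 match, chr10:127290543-127290571: cgcgcgcaTGACTCActcacctcctccgc

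The Ddit3 summit fell on a reverse-strand CCAAT match (77 to 73 bases before the start), while its AP-1 match was 242 to 236 bases before the start, 160 bases from the summit. Eif2ak3 had 6 CCAAT matches, the last of them (20 to 16 bases before the annotated transcript start) past the printed run. Atf4 had 2, and neither gene had a match to the other motifs. Herpud1 held the composite TTGCATCA 112 to 105 bases before its start, a motif in 0.996% of genes in the table, along with 2 CCAAT matches. The letters gccacg directly follow the reverse-strand match, 52 to 48 bases before the Herpud1 start. CCAAT and CCACG in arrangements other than the ER stress element defined above were not searched for in any promoter. CCAAT was present in 6 of 8 member promoters and in 42.7% of all genes' promoters, and the cAMP response element in 0 of 8 and in 2.58%. Xbp1 and Ern1 had no match to any motif of the list. These matches describe the letters of the 300 bases and nothing about which factor bound.

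**Figure D1:**
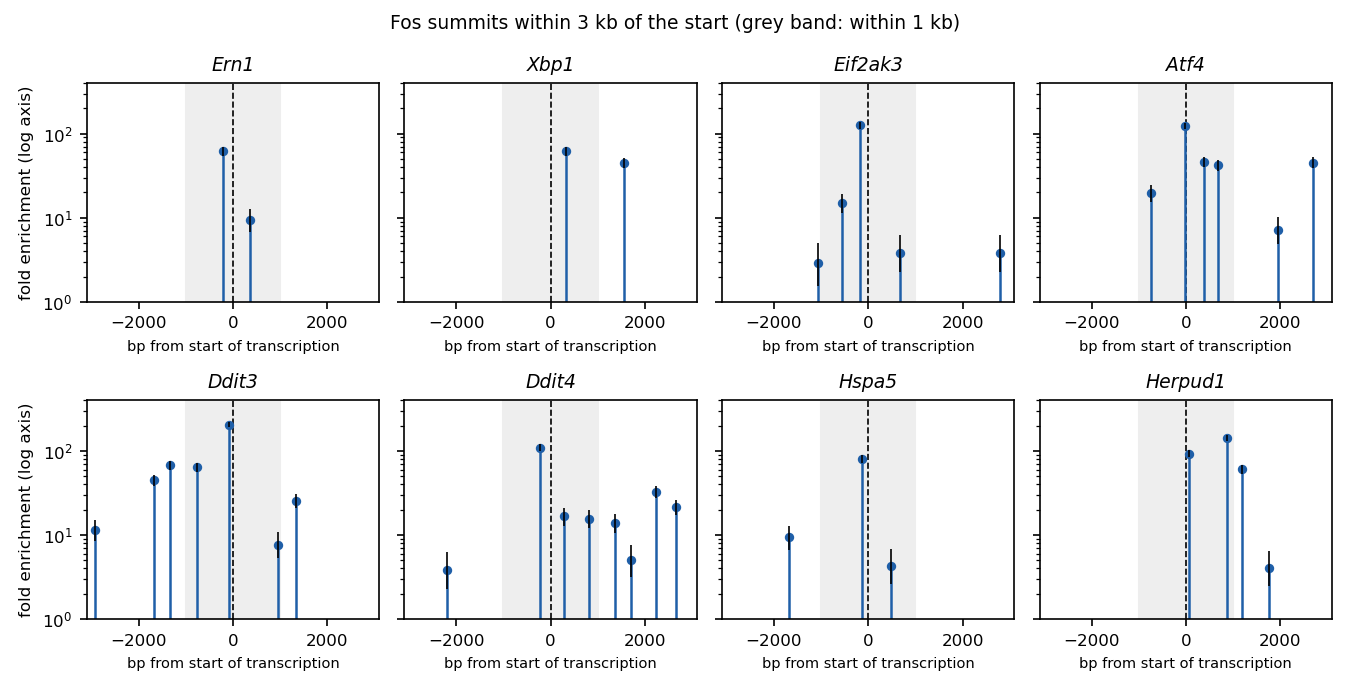
Fos summits within 3 kb of the start of transcription of the 8 genes with an annotated start; x is the distance from the start in bp, y the fold enrichment on a log axis, and error bars are 95% Poisson intervals of the pileup on the fold scale. At Ern1, Eif2ak3, Atf4, Ddit3, Ddit4 and Hspa5 the highest summit lies 12 to 218 bp before the start, at Herpud1 and Xbp1 866 and 321 bp after it.

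The 33 boundary summits of the 10 members, at either end, had a median fold of 19.5, against 10.3 for the 31056 summits of the whole list at a boundary of any gene. They were uneven. The 20 at the start-side end of 8 genes had a median of 53.9, the 7 at the other end, found at Atf4, Ddit4 and Xbp1, had 14.0, and the 6 at the upper ends of Ern2 and Atf6 had 10.3. Boundary summits of all genes were not parted into start and end, so these medians have no value over all genes beside them. Of the 7, 4 were at Ddit4, in the same region as its start summits. Inside the 10 genes, more than 1 kb from their ends, 40 summits had a median fold of 6.98, and the 241 outside had 7.22, close to the 6.73 of all summits. Over the 314 summits the median was 7.46, and 43 of them (13.7%) were among the strongest 10% of the list, which begins at a fold of 38.0.

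The order of the members by their strongest boundary summit ran from Ddit3 down to Ern2. The pileup was 845 fragments at Ddit3 (interval 789 to 904), 584 at Herpud1 (538 to 633), 521 at Eif2ak3 (477 to 568) and 509 at Atf4 (466 to 555). It was 454 at Ddit4 (413 to 498), 330 at Hspa5 (295 to 368), 255 at Xbp1 (225 to 288) and 254 at Ern1 (224 to 287). Atf6, with 81 (64.3 to 101), and Ern2, with 40 (28.6 to 54.5), stood well below the rest. Counting intervals of neighbours overlapped between Herpud1 and Eif2ak3, Eif2ak3 and Atf4, Atf4 and Ddit4, and Xbp1 and Ern1, and were separate at each other step. Genes without any boundary summit count as 0 in the median of 8.90 over all protein-coding genes, beside which the members' median boundary fold was 94.5. Among the 13405 genes with such a summit the median was 27.4.

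The paralogs of the IRE1 arm differed at their boundaries. Ern1, the sensor found in most tissues (chr11:106397620-106487796, minus strand), had its strongest boundary summit 213 bp before its start, with a fold of 61.3 (percentile 86.5 among protein-coding genes). A weaker one followed 356 bp after the start with a fold of 9.38. Ern2, the sensor of mucus-secreting epithelium (chr7:122169893-122186239), had 3 boundary summits, all at its upper end, with folds of 5.53, 5.29 and 9.86, and the last was at percentile 51.5. The intervals of the 2 strongest boundary pileups, 224 to 287 and 28.6 to 54.5 fragments, did not overlap. The strongest summit that had Ern2 as its nearest gene was inside it, 1354 bp from the upper end, with a fold of 34.2 and 141 fragments (119 to 166). With boundaries of 2000 bp it counts as a boundary summit, which places Ern2 above Atf6 and still below Ern1.

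Within 50 kb the order of the paralogs was reversed in number, and for raw counts this depended on the window. Ern2 had 29 summits with a median fold of 11.5 and Ern1 had 24 with a median of 6.25. With windows of 100 kb Ern2 had 41 and Ern1 32, but with 20 kb Ern2 had 16 and Ern1 19. Ern1 is 90177 bp long and Ern2 16347 bp, so at each setting the Ern1 window is the longer. Per 100 kb of window, with 50 kb on each side, Ern2 had 24.9 summits and Ern1 12.6. Counts with the other windows were not scaled by length. Of the 29, 8 had Ern2 as the nearest gene and 21 had another gene, among them the strongest, with a fold of 73.6, at 1622 bp from Chp2, a calcineurin B homologous protein. Of the 24 in the Ern1 window, 15 had Ern1 as the nearest gene. Ern1 had 10 interior summits, with folds of at most 14.2, and the strongest of its window, with a fold of 63.0, was 13132 bp before its start and 1211 bp from Tex2.

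Xbp1 (chr11:5520641-5525993, plus strand), the transcription factor activated by IRE1, had 29 summits, 19 of them nearest to Xbp1. Its start summit was 321 bp after the start with a fold of 61.6, and a further one inside the gene at 1562 bp after the start, in the same region of 2031 bp, had a fold of 44.7. Before the start lay 16 summits between 9660 and 46196 bp away, with a median fold of 8.42 and at most 27.4. Of these, 6 stood in 1 region of 2291 bp, where the highest was 22379 bp before the start. The window's highest fold, 62.3, was 157 bp from Ccdc117.

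In the PERK arm, Eif2ak3 (chr6:70844484-70905241, plus strand), which encodes PERK, had a start summit with a fold of 125.6, 181 bp before the start. It was exceeded by 2 distant sites. The strongest summit of any member window, with a fold of 340.6 and 1415 fragments (1342 to 1491), was 30312 bp before the Eif2ak3 start, in the region chr6:70811809-70815197 of 7 summits. It ranked 48th of all 178981 summits, and its nearest gene was Rpia, the ribose 5-phosphate isomerase, 22028 bp away. The other distant site, chr6:70871362-70872976, was a region with a single summit inside Eif2ak3, 27900 bp after the start, with a fold of 226.6 and 941 fragments (882 to 1003), which ranked 287th. A further site 19772 bp before the start, nearest to Eif2ak3, had a fold of 107.0. The median fold over the 33 summits of the window was 6.25.

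Atf4 (chr15:80255184-80257545, plus strand), the factor translated when eIF2α is phosphorylated, had the fewest summits of the members, 16, but 6 of them were at its boundaries. With windows of 100 kb it had 46, and Hspa5 had the fewest, 30. The start region of 2518 bp held 4 summits, at 738 and 12 bp before the start with folds of 19.5 and 122.7, and at 390 and 672 bp after it with folds of 46.4 and 42.3. The 2 at the other end had folds of 7.22 and 45.2. The remaining strong site of the window, with a fold of 112.8, was 23 bp from Mief1, a mitochondrial dynamics factor, and 21243 bp before the Atf4 start. The number of summits in its window stood at percentile 52.1 of all protein-coding genes and its boundary fold at percentile 96.3.

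Ddit3 (chr10:127290793-127296291, plus strand), which encodes the pro-apoptotic factor CHOP, had the highest boundary fold of the members, 203.5, at 76 bp before the start. The summit was at percentile 99.3 of protein-coding genes by boundary fold and ranked 446th of all summits. It also lay within the annotated span of Mbd6, so the 2 genes cannot be told apart by position. The region around it, chr10:127287349-127292397, was 5049 bp wide and held 7 summits, of which those at 754, 1346 and 1672 bp before the start had folds of 63.7, 67.1 and 44.5. Inside Ddit3 and more than 1 kb from its ends there was 1 summit, with a fold of 25.3 at 1331 bp after the start. Of the 31 summits in the window, 29 had another gene as the nearest.

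Ddit4 (chr10:59949675-59951770, minus strand), which encodes the mTORC1 inhibitor REDD1 and is induced by ATF4, had 61 summits, the most of the members. That count was at percentile 96.9 of protein-coding genes, and at percentile 98.9 per 100 kb of window. A region of 4431 bp with 8 summits covered the whole gene. It peaked 218 bp before the start with a fold of 109.4, and the next 3 summits along the gene had folds of 16.6, 15.6 and 14.0. A pair of summits 12496 and 12988 bp after the start, nearest to Ddit4, had folds of 57.5 and 43.8. The strongest distant one, with a fold of 102.7, was 30416 bp after the start and 22058 bp from Dnajb12, which encodes a co-chaperone of the ER membrane. Of the 61 summits, 22 were nearest to Ddit4.

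Atf6 (chr1:170704457-170868585), the sensor cleaved in the Golgi, had low maxima among the members, while the median fold over its window, 7.10, was close to that of all summits. Its 26 summits included 16 in the interior, with a median fold of 6.98 and at most 16.4, and 3 at the upper end, with folds of 10.8, 13.0 and 19.7. The strongest summit of the window, with a fold of 39.4, lay in Dusp12, a dual specificity phosphatase, 16744 bp above the Atf6 upper end. The highest fold of the window stood at percentile 40.6 of all protein-coding genes and the summits per 100 kb at percentile 46.3, both the lowest of the members.

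Both ER effectors had strong starts and different surroundings. Hspa5 (chr2:34772090-34776529, plus strand), which encodes BiP, the main ER chaperone and a marker of the response, had a start summit 123 bp before the start with a fold of 79.6, the highest of its window. Of its 22 summits 3 were nearest to Hspa5, the other two with folds of 9.38 at 1674 bp before the start and 4.33 at 474 bp after it. The strongest of the 15 after its end, with a fold of 58.2, was 2014 bp from Fbxw2, an F-box protein. No summit lay in the interior of Hspa5.

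Herpud1 (chr8:94386429-94395371, plus strand), a membrane protein of ER-associated degradation, had a region of 3178 bp over its start with summits at 63, 866, 1197 and 1760 bp after it. Their folds were 92.6, 140.7, 60.6 and 4.09, and with boundaries of 500 bp its highest boundary fold is the 92.6. A single summit 8488 bp before the start, nearest to Herpud1, had a fold of 72.9. Its 43 summits were the second highest count of the members, and 32 of them lay before the start outside the gene. Many of these were in Slc12a3, the sodium chloride cotransporter gene, including the window's strongest, with a fold of 153.9 and 639 fragments (590 to 691) at 32090 bp before the Herpud1 start. A region of 2957 bp with 6 summits stood 22250 to 24400 bp before the start, with folds between 14.4 and 72.2.

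**Figure D2:**
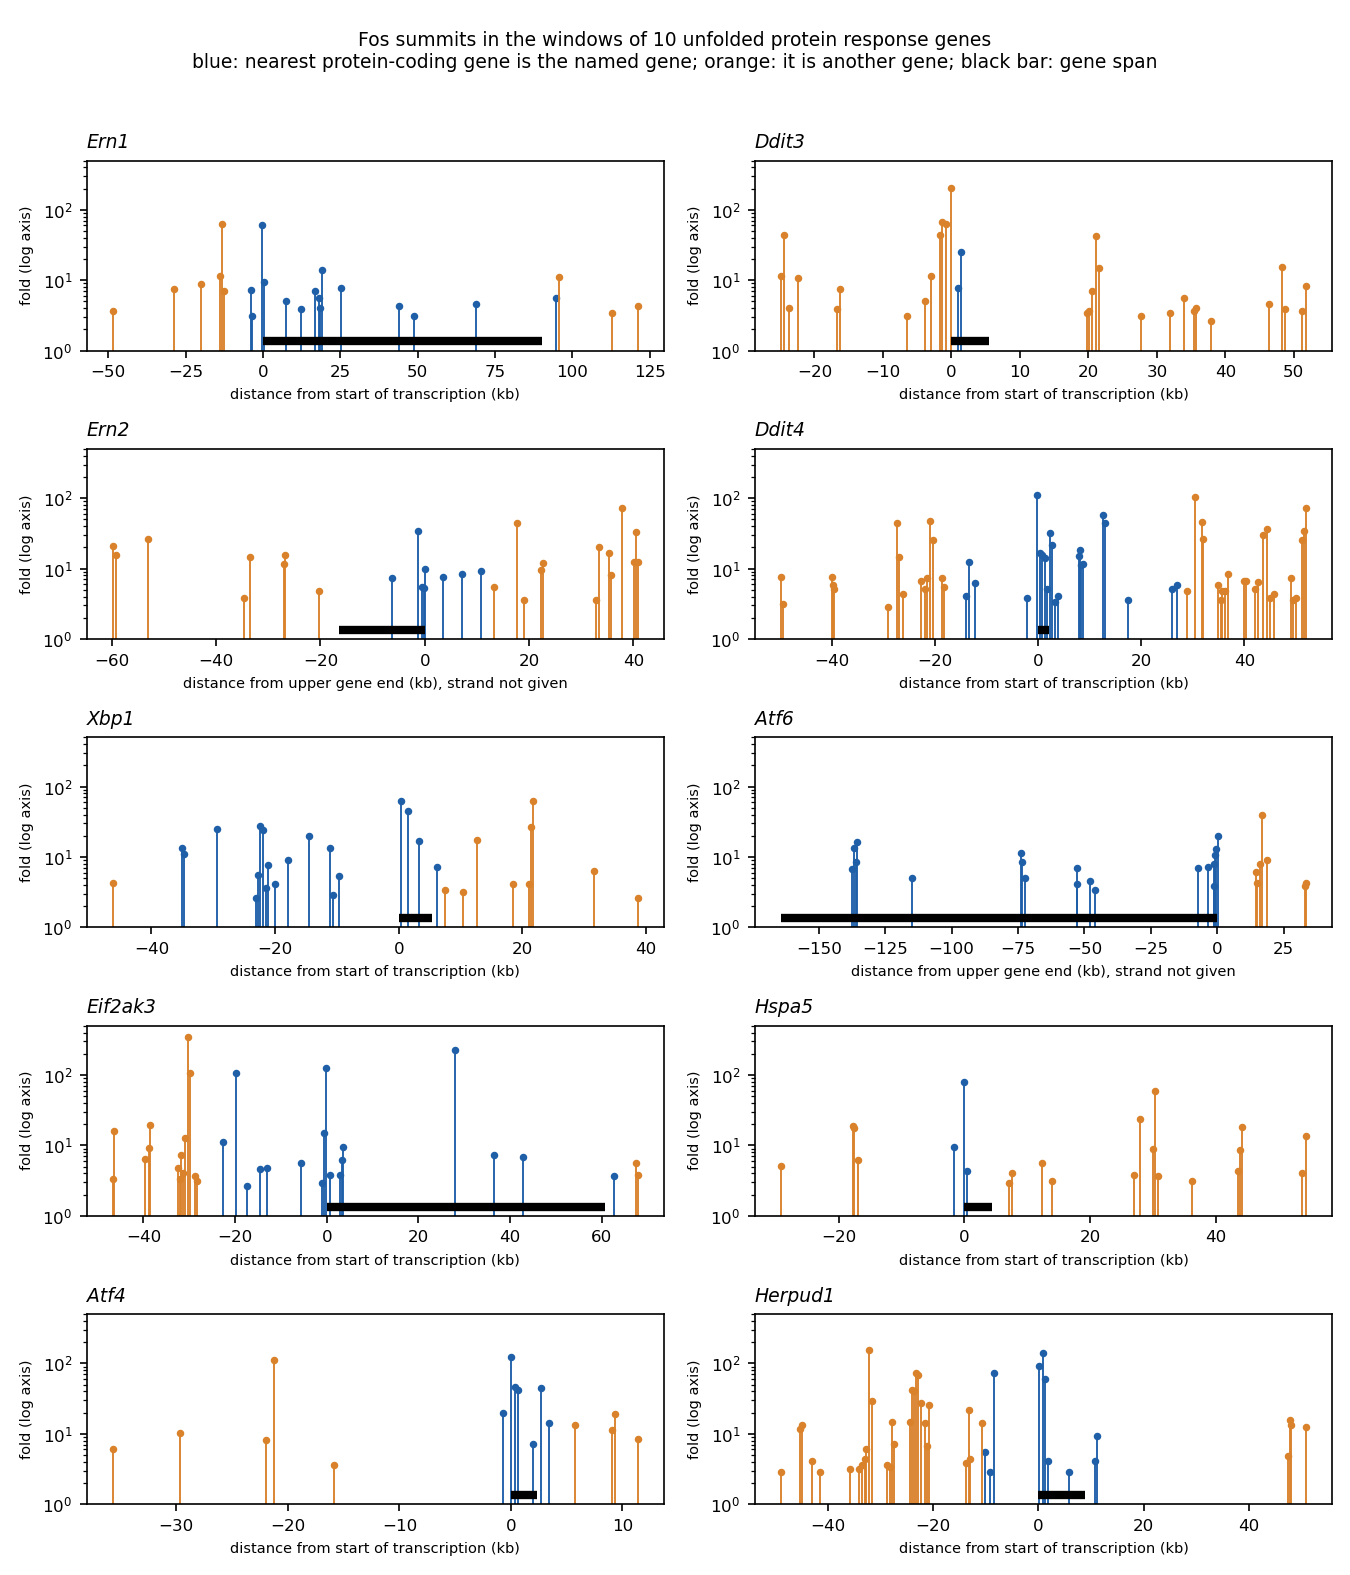
Fos summits in the windows of the 10 genes; x is the distance in kb from the start of transcription along the gene (for Ern2 and Atf6, from the upper gene end), y the fold enrichment on a log axis, and the black bar is the gene. Blue summits have the named gene as the nearest protein-coding gene and orange ones another gene; the highest summit is at 340.6 in the Eif2ak3 window, and at Atf6 none passes 39.4.

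By number, the members had a median of 29 summits in their windows, with a range of 16 to 61, against a median of 16 over all protein-coding genes. Of the 10 counts, 9 were above that median and the Atf4 count equalled it. Per 100 kb of window the members' median was 23.0 and that of all genes 11.1. Windows also hold other genes, from 1 at Ddit4 and Eif2ak3 to 6 at Ddit3, and 192 of the 314 summits (61.1%) had another gene nearest. The median fold was 7.70 for the 122 summits nearest to a member and 7.46 for the rest. Nearness in base pairs was the 1 link used between summits and genes.

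**Figure D3:**
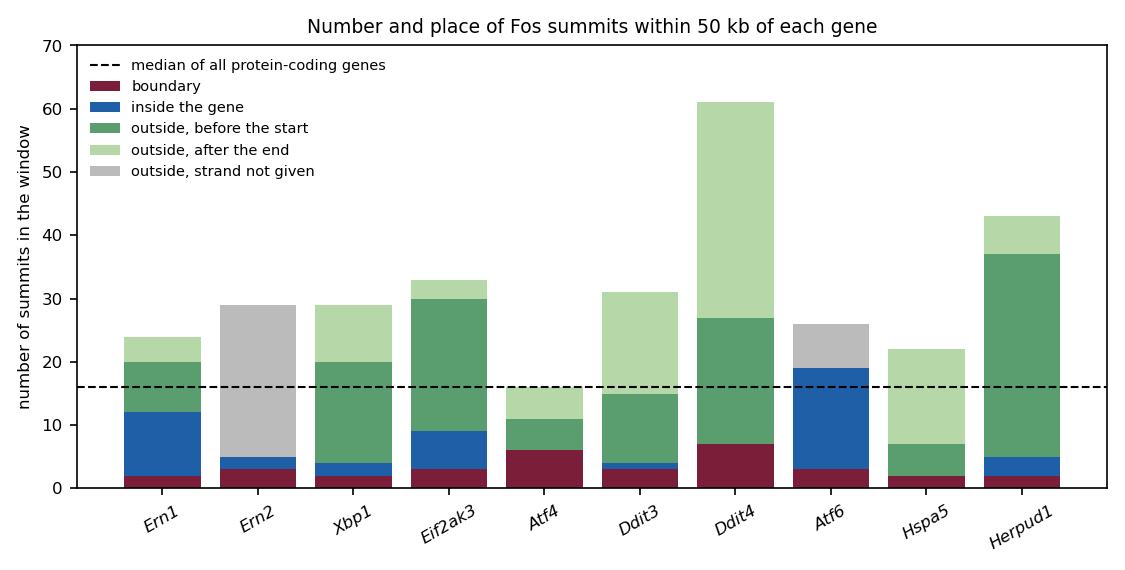
Number of Fos summits within 50 kb of each of the 10 genes, parted by their place relative to the gene; the dashed line is the median of all protein-coding genes, 16. Ddit4 has the tallest bar, with 61 summits, and Atf4 the shortest, with 16.

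The 4 measures placed the members differently among all genes. By boundary fold, Ddit3, Herpud1, Eif2ak3, Atf4 and Ddit4 stood at percentiles 95.1 to 99.3, Hspa5 at 91.0 and Xbp1 and Ern1 at 86.6 and 86.5. Among the 13405 genes that had a boundary summit these 8 stood at percentiles 78.3 to 98.9, and Atf6 and Ern2 at 39.7 and 21.8. By the highest fold of the window, Xbp1 and Ern1 stood at percentiles 54.2 and 54.7, near the middle, and Eif2ak3 at 99.6.

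**Figure D4:**
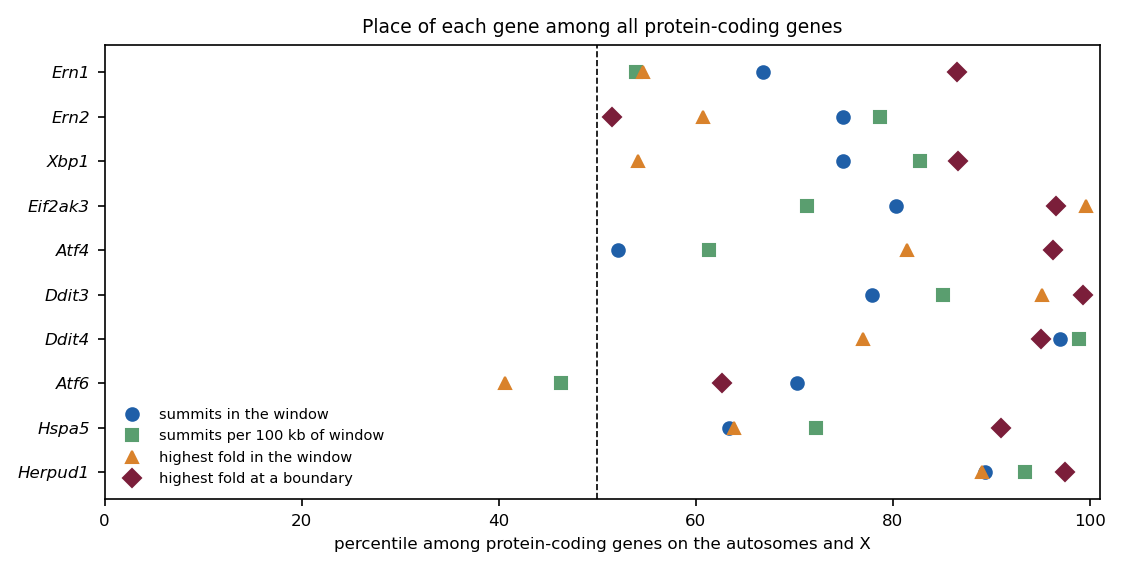
Percentile of each of the 10 genes among protein-coding genes for 4 measures: summits in the window, summits per 100 kb, highest fold in the window and highest fold at a boundary; the dashed line marks percentile 50. For 8 genes the boundary fold lies at percentile 86.5 or above, while for Ern2 it lies at 51.5 and for Atf6 at 62.7.

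Boundary summits were also common in other genes of the pathway, at a lower median fold than the members' 94.5. These genes, like the members, were chosen with earlier results of these data known, so the shares below only describe the list. In a list of 57 further ER stress genes, 55 had a boundary summit (96.5%, against the 62% of all protein-coding genes), all but Slc7a11, the cystine transporter induced by ATF4, and Edem1, a lectin-like protein of ER-associated degradation. Their median boundary fold, with those 2 at 0, was 52.7, and their median count in the window was 23. Of 14 chaperone and folding genes, all 14 had a boundary summit, with a median fold of 76.2. The highest were 199.9 at Manf, a secreted ER stress factor, and 166.4 at Hsp90b1, the ER form of the HSP90 chaperone.

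Among 15 genes of the PERK and integrated stress response group, 14 had a boundary summit and the median fold was 36.3. Eif2ak4, the amino acid sensing eIF2α kinase GCN2, led with 190.7, followed by Atf3, itself a leucine zipper factor, with 151.3. In the IRE1 and XBP1 group 9 of 10 genes had one (median 55.4), led by Tmbim6, a suppressor of cell death in the ER membrane, with 124.8 and the ER co-chaperone Dnajb9 with 72.6. All 10 genes of ER-associated degradation had one (median 62.7), led by the membrane proteins Derl2 with 116.9 and Derl1 with 92.4. All 8 of the ATF6 group had one (median 48.9), with 106.1 at Wfs1, the wolframin gene, and 75.8 at Creb3l2. The lowest of this group were 7.70 at Creb3l3, 9.14 at Mbtps2 and 10.6 at Creb3l1.

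**Figure D5:**
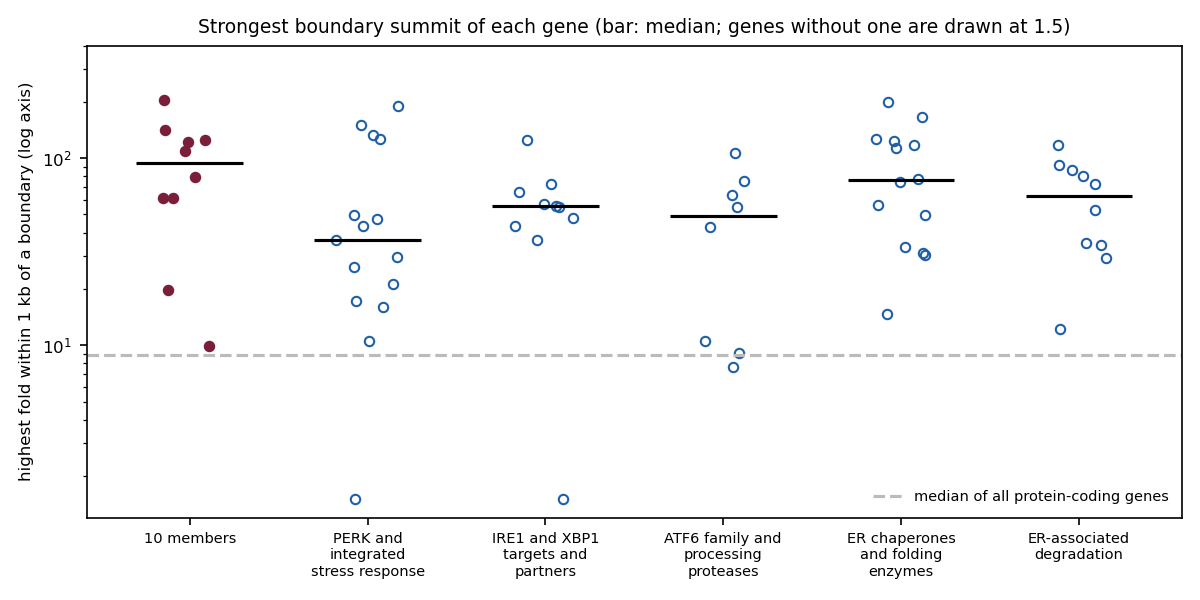
Highest fold within 1 kb of a boundary, on a log axis, for the 10 members and for 57 further ER stress genes in 5 groups; each point is a gene, bars are medians, and the dashed line is the median of all protein-coding genes, 8.90. The members' median is 94.5 and those of the groups run from 36.3 to 76.2; Slc7a11 and Edem1, without a boundary summit, are drawn at 1.5.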

How the data were processed

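Fos CUT&Tag libraries of healthy (2) and colitis recovered (2) mouse colonic epithelium were represented by 1 narrowPeak list. The submitters' processing notes name Bowtie2, MACS2 and the build mm10. Versions, options, duplicate handling, the libraries behind the list and their depth are not given in the sources used here. At each summit the deposited fold is the summit's linear ratio to background. The deposited −log10 q-value served as a filter, and the −log10 p-value and the score (10 times −log10 q, cut to a whole number) served as checks.

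All folds were whole multiples of 0.2405 within 0.05 steps, the worth of 1 fragment. The fold was read as pileup plus 1 over background plus 1, with a background of 3.16, which gave the pileup. Summits (column 2 plus column 10, made 1-based) were assigned to protein-coding genes of the RefSeq table (GRCm38.p6) and to the RefSeq promoter table with pandas 2.3.3 and scipy 1.17.1; counting was tested on simulated data. The window was 50 kb and a boundary 1000 bp. Percentiles count genes at or below a value. The members and lists were chosen with earlier results of these data known. All members are named, with the strongest summit of each window. In each wider group the 2 genes with the highest boundary fold and those without a boundary summit are named. Creb3l3, Mbtps2 and Creb3l1 were added after their values were seen. No set test was run. No columns (0) were left out for want of a sample. Motifs at summits beyond the promoter table were not analysed here, since no genome sequence was used.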

Additional observations from a re-analysis of the deposited data

How the results depend on the processing

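No paired analysis was possible because the peak list has no column per library, and for the same reason no library could be left out in turn. The counts and folds were recomputed with stricter lists, 1 summit per region, no regions wider than 3000 bp and other windows or boundaries. A boundary summit was present at 10 of 10 members in each setting (at the start alone, 8 of 8 with an annotated start) except without regions wider than 3000 bp, where 7 kept one (58.8% of all protein-coding genes) and Ddit3, Ddit4 and Herpud1, whose start regions are 5049, 4431 and 3178 bp wide, lost theirs. The 314 summits became 203 with −log10 q of at least 10, 170 with 1 summit per region and 167 with windows of 20 kb. The median per window, 29, became 17.5, 17.5 and 16 in these settings, and that of all genes, 16, became 9, 10 and 8. Summits nearest to a member fell from 122 to 69 with 1 summit per region. The median fold of the members' summits rose from 7.46 to 13.5 with −log10 q of at least 10, where that of all summits was 12.5. These settings count fewer summits by construction. The other alternatives moved none of the members' totals and medians by more than 1.5 times, but they moved values of single genes. With boundaries of 2000 bp the Ern2 boundary fold rose from 9.86 to 34.2, and with 500 bp that of Herpud1 went from 140.7 to 92.6. Windows of 100 kb raised the Atf4 count from 16 to 46 and the Ddit4 count from 61 to 93, with the median of all genes at 28. The highest fold in the Ddit3 window was 44.3 without regions wider than 3000 bp, that of Eif2ak3 226.6 there and with windows of 20 kb, and that of Ern2 44.3 with 20 kb. The median of the members' highest fold was between 76.6 and 94.5 in the settings computed for it. Weak summits rest on as few as 10 fragments.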

Other observations

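Some strong summits in the members' windows stood near or inside neighbouring genes. Of the examples below, only the summit near Ccdc117 was the strongest of its window. In the Ddit4 window a region of 2595 bp near Dnajb12 had its highest summit 566 bp from that gene, with a fold of 72.9 and 302 fragments. In the Ddit3 window the methionyl-tRNA synthetase gene Mars1 had a summit with a fold of 41.9 at 75 bp from its span, and Dctn2, a dynactin subunit, one of 44.3 inside it. In the Xbp1 window the summit 157 bp from Ccdc117, with 258 fragments (227 to 291), was as high as the Xbp1 start summit with 255 (225 to 288), the intervals overlapping.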
